A study of Homo sapiens with 10 samples.

Results

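The comparison described here set 12Z cells given IL1β with 1 µM CDD-2728 against 12Z cells given IL1β alone. It was taken as the libraries whose labels name these treatments, 2 of each and 4 of the 10 libraries in the series, and was read over 15740 tested genes of 62750 gene IDs in the deposited count table. 12Z is an established line of human endometriotic epithelial cells from a peritoneal lesion. All cells were serum-starved overnight in phenol red-free medium with 2% charcoal-stripped serum and then had 30 min of vehicle (DMSO) or inhibitor. IL1β at 10 ng/ml followed for 6 h. The IL1β group had DMSO and IL1β. The treated group had 1 µM CDD-2728, labelled as a JNK inhibitor, and IL1β. The other groups, also of 2 libraries each, were vehicle with no IL1β, IL1β with 10 µM CDD-2728, and IL1β with 1 µM of a second labelled JNK inhibitor, CDD-3013. No group held CDD-2728 without IL1β, and all groups came from 1 cell line. The comparison asks which IL1β-exposed transcripts are at another level when the inhibitor is present.

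IL1β is an inflammatory cytokine whose receptor, through MYD88, IRAK kinases and TRAF6, starts both the NF-κB pathway and the stress-activated MAP kinases, JNK and p38. JNK phosphorylates the transactivation domain of JUN and acts on ATF2 and JUND. JUN pairs with FOS proteins or with ATF proteins to form AP-1, and the JUN gene is itself an AP-1 target. MAP kinase phosphatases of the DUSP family remove the activating phosphates from JNK, p38 and ERK, and several of their genes are induced by the kinases they switch off. In endometriosis, IL1β in peritoneal fluid is associated with prostaglandin, chemokine and matrix protease production by lesion cells.

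Total counts in the 4 libraries were 18166317 and 16312600 (IL1β) and 18453896 and 16517549 (1 µM CDD-2728). Levels are CPM, read counts scaled by library size and TMM factors, and log2 fold changes carry ± SE. The labels do not say whether the libraries of a group came from separate cultures, so p-values measure a spread between libraries that may be technical. The fit estimated that spread over all 10 libraries in 5 groups, not from these 4 alone. Replicates did not differ equally. The chi-square of their counts per degree of freedom was 8.23 in the 1 µM CDD-2728 pair and 2.66 in the IL1β pair, the largest and smallest of the 5 groups. With 2 libraries against 2, an exact two-sided test of 1 gene cannot go below p = 0.333. Unless DESeq2 is named, every adjusted p here comes from edgeR's quasi-likelihood fit across all genes, adjusted over 15740 genes. CDD-2728 replicate 1 stood apart from the other 3 libraries in its relation of level to transcript length, and the values with and without it are given with the results below. The epithelial keratin KRT8 was at a mean of 6093 CPM with IL1β and 6733 CPM with CDD-2728. Of the 12 epithelial markers listed, 4 had a mean under 1 CPM. The cells also carried the mesothelial marker LRRN4 (477 and 560.0 CPM) and the stromal collagen COL1A1 (3226 and 2970.1 CPM). Summed immune markers were at 20.9 to 28.1 CPM in the 4 libraries, most of it CD14, and 7 of 18, among them CD3E and CD163, were at 0 in all 4.

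In the test, 319 genes were higher with 1 µM CDD-2728 than with IL1β alone (2.03% of those tested) and 403 were lower (2.56%), 4.59% of genes in all. Of the calls, 38 and 24 were at least 2-fold. The median log2 change was 0.47 among the higher and -0.41 among the lower. Called genes were ranked if their mean was at least 2 CPM in the higher of the 2 groups. That floor lets in genes that are low in the other group. Antisense, LINC and clone names, pseudogenes and unnamed IDs were left out of the ranking. The 5 largest falls were in CREB5, DUSP8, NEDD9, SPON1 and HBEGF. CREB5 is an ATF/CREB-family partner of JUN and DUSP8 a JNK phosphatase. NEDD9 is an adhesion scaffold, SPON1 a matrix protein and HBEGF a ligand of the EGF receptor. The 3 largest rises were in TDO2, which opens the kynurenine route of tryptophan breakdown, the IL10-family cytokine IL20 and C2CD4A, and the acute-phase genes SAA1 and SAA2 were among the next. SPON1 and IL20 were near that floor, at 2.29 and 2.38 CPM and then 0.45 and 1.05 CPM for SPON1 and 0.894 and 0.753 CPM and then 3.21 and 1.91 CPM for IL20. SPON1 was not called without IL1β replicate 1 (adjusted p = 0.15), IL1β replicate 2 (adjusted p = 0.137) or CDD-2728 replicate 1 (adjusted p = 0.332), IL20 was not called without IL1β replicate 1 (adjusted p = 0.103), IL1β replicate 2 (adjusted p = 0.116) or CDD-2728 replicate 1 (adjusted p = 0.259), and DESeq2 gave neither an adjusted p. When each of the 4 libraries was left out in turn, 80 of the higher and 91 of the lower genes kept their call every time, and all of these also kept it after correction for transcript length. Counts of calls moved widely between those fits. Leaving out IL1β replicate 1 gave 91 higher and 127 lower, and leaving out IL1β replicate 2 gave 163 and 140. Leaving out CDD-2728 replicate 1 gave 168 and 140, and leaving out replicate 2 gave 835 and 653. Genes called with values below passed in all of those fits unless a library is named. For a gene list, 4 leave-one-out counts give its calls without IL1β replicate 1, IL1β replicate 2, CDD-2728 replicate 1 and CDD-2728 replicate 2, in that order. The share of all genes called, 2.03% higher and 2.56% lower, is the background of each list count. Both libraries of 1 group lay beyond both of the other in 47.9% of tested genes and in all 722 called genes. Groups that do not overlap are therefore a description of a called gene and no further support for its call. In bulk RNA, fewer cells of a type and less RNA per cell cannot be told apart.

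**Figure D1:**
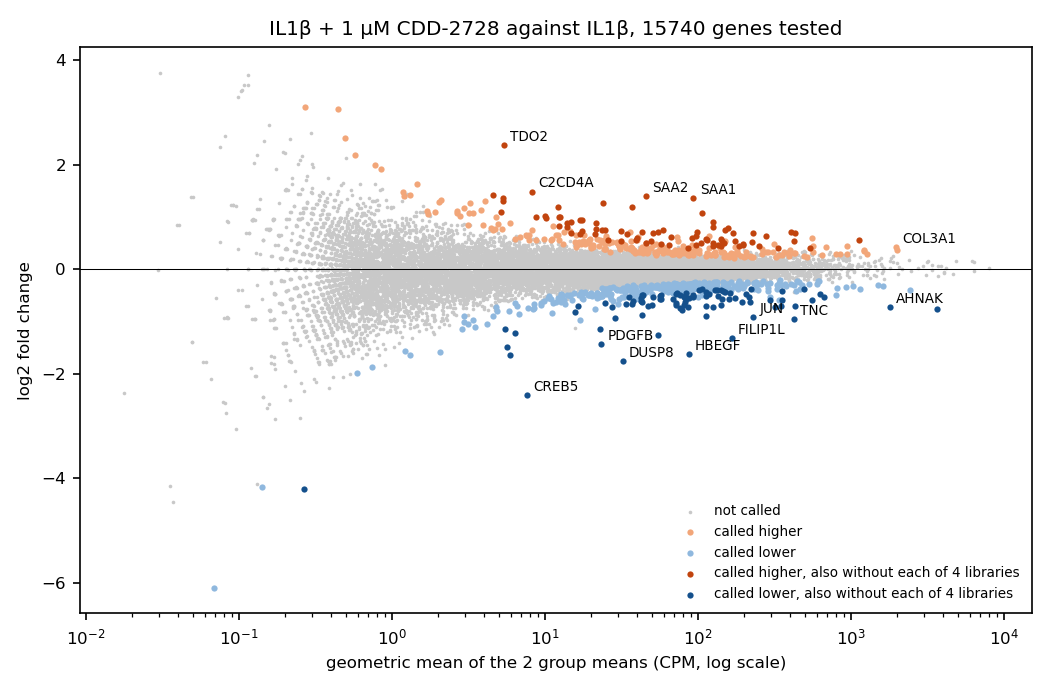
Each point is 1 of 15740 tested genes, with the geometric mean of the group means (CPM, log scale) on the x axis and the log2 fold change of IL1β + 1 µM CDD-2728 over IL1β on the y axis. Called genes are in light orange (higher) and light blue (lower), the 80 and 91 that kept the call without each library in turn are in dark orange and dark blue, and grey genes did not pass. CREB5 is the lowest labelled gene and TDO2 the highest.

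JUN messenger RNA was lower with the inhibitor in both libraries. JUN (GRCh38 chr1:58780788-58784327, minus strand), the subunit that JNK phosphorylates, was at 308 and 324 CPM with IL1β and at 165 and 169 CPM with 1 µM CDD-2728. The groups did not overlap, and JUN fell by 0.92 ± 0.08 on the log2 scale, to a level 1.9-fold lower (edgeR, adjusted p = 1.37e-08). Vehicle libraries held 132 and 146 CPM, so JUN with 1 µM remained above the cells without IL1β, a contrast in which 34.8% of genes were called (log2 difference 0.26 ± 0.08, adjusted p = 0.00597). CREB5 (chr7:28299321-28825894, plus strand) was at 16.7 and 18.8 CPM with IL1β and 2.36 and 4.32 CPM with the inhibitor. It fell by 2.42 ± 0.22 (adjusted p = 1.36e-07), and its difference from vehicle was 0.03 ± 0.25 (95% interval -0.50 to 0.55). JUND, a JUN paralog, was at 377 and 355 CPM and then 253 and 233 CPM, a fall of 0.59 ± 0.08 (adjusted p = 5.53e-06). BACH2, a CNC-family repressor that binds AP-1-like sites with MAF proteins, was at 10.3 and 9.16 CPM and then 4.17 and 4.13 CPM, and fell by 1.23 ± 0.20 (adjusted p = 0.000265). In both of these genes, too, the higher inhibitor library lay under the lower IL1β library.

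Of 21 tested AP-1 subunits and dimer partners 6 fell and 1 rose, with a median log2 change of -0.15, beside 0.00 over all genes (leave-one-out counts 4, 5, 5 and 6 lower, 1, 1, 1 and 2 higher). The others that fell were MAFK and ATF3, a stress-induced ATF factor. ATF3 went from 25.8 and 25.7 to 19 and 18.3 CPM (-0.46 ± 0.12, adjusted p = 0.018), a call lost without IL1β replicate 1 (adjusted p = 0.163), IL1β replicate 2 (adjusted p = 0.124) or CDD-2728 replicate 1 (adjusted p = 0.0839). The 1 riser was MAF, at 23.5 and 25.2 CPM with IL1β and 39.3 and 41.6 CPM with CDD-2728 (0.73 ± 0.11, adjusted p = 1.72e-05). FOSL1, a FOS-family partner of JUN induced by growth factors and cytokines, did not pass (log2 difference -0.45 ± 0.16, adjusted p = 0.15), nor did JUNB (0.26 ± 0.10, adjusted p = 0.175) or FOS (0.52 ± 0.26, adjusted p = 0.292), which was under 4 CPM in all 4 libraries.

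The kinases themselves did not pass the test. MAPK8, which encodes JNK1, was at 32.1 and 35.6 CPM with IL1β and 33.6 and 32.5 CPM with CDD-2728 (95% interval of the log2 difference -0.26 to 0.19). MAPK9, encoding JNK2, was at 68 and 69.4 CPM with IL1β and 59.6 and 66.5 CPM with the inhibitor (-0.31 to 0.07), and MAPK10, encoding JNK3, was under 2 CPM in all 4 libraries (-0.64 to 1.11). None of 15 p38 and ERK kinase genes passed (edgeR; 4 at an unadjusted p under 0.05 and 0 called by DESeq2). Of 28 JNK activators and scaffolds, MAP3K21 and the scaffold MAPK8IP3 were called lower (leave-one-out counts 0, 0, 0 and 2).

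MAPK phosphatases fell where they changed. Of 11 tested members 4 were lower and 0 higher, with a median of -0.37 (leave-one-out counts 3, 4, 3 and 4 lower). DUSP8 (chr11:1554044-1571920, minus strand), which acts on JNK and p38, was at 59.3 and 59.6 CPM with IL1β and 15.9 and 19.3 CPM with the inhibitor. It fell by 1.76 ± 0.11 (adjusted p = 6.73e-10), to 3.38-fold less than with IL1β alone and to below the vehicle level of 23.3 and 20.9 CPM (log2 difference from vehicle -0.33 ± 0.12, adjusted p = 0.0299). DUSP1, the early phosphatase of p38 and JNK, was at 168 and 195 CPM and then 106 and 119 CPM (-0.69 ± 0.11, adjusted p = 0.00142). DUSP4, a nuclear phosphatase of ERK and JNK, was at 49.3 and 43.7 CPM and then 29 and 32.4 CPM (-0.60 ± 0.10, adjusted p = 0.000231). The last, DUSP16, also a JNK phosphatase, was at 70.2 and 64.4 CPM and then 51.2 and 52.9 CPM (-0.37 ± 0.09, adjusted p = 0.00865) and lost its call without IL1β replicate 1 (adjusted p = 0.215) or CDD-2728 replicate 1 (adjusted p = 0.0865). None of 6 Sprouty and SPRED inhibitors of the ERK route passed (edgeR; 2 at an unadjusted p under 0.05 and 0 called by DESeq2).

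Upstream sequence of these genes is shown because JUN:ATF dimers bind CRE-like octamers. Upstream means before the RefSeq start, which can differ from the end of the gene span given above, taken from GENCODE 29. The JUN run below lies within its GENCODE span, and the DUSP8 run does not adjoin its own. Promoter windows of 300 bases (250 before and 50 after the RefSeq start, GRCh38.p14) were searched on both strands for TGANTCA, TGACGTCA and TGACATCA, of which none can overlap another. Over 27305 promoters, 7.76% held TGANTCA, 1.98% TGACGTCA and 2.71% TGACATCA. Among the 11220 promoters of tested genes the shares were 4.79%, 3.31% and 1.41%. The 4 genes below were chosen because they fell and hold such a match, so the matches are a description and not a count of targets. Capitals mark the octamer, and each run ends at the base before the RefSeq start, all on the minus strand: JUN (chr1:58784048-58784124), DUSP8 (chr11:1572272-1572399), DUSP1 (chr5:172771196-172771330) and BACH2 (chr6:90296844-90296935).
JUN: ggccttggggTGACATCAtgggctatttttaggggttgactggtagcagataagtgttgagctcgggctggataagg
DUSP8: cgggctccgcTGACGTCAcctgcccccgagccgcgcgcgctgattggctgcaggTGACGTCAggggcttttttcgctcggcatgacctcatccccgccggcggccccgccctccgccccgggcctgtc
DUSP1: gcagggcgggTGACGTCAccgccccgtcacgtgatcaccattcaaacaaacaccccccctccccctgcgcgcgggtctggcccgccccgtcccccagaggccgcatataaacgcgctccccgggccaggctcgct
BACH2: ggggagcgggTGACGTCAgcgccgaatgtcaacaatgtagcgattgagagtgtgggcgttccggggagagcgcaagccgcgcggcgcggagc
The JUN match begins 67 bases before the start and is the proximal octamer form TGACATCA. DUSP8 holds TGACGTCA at 118 and again at 74 bases before its start, DUSP1 at 125 and BACH2 at 82. JUND holds TGACGTCA at 200 bases and ATF3 holds TGACATCA at 123 bases before the start. Genes that rose hold such matches too, among them MAF with TGACGTCA at 45 bases and TDO2 with a TGANTCA match at 244 bases. HBEGF, the steepest faller among the growth factors, holds none of the 3 in its window.

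Growth factor genes were among the steepest fallers. HBEGF (chr5:140332843-140346631, minus strand) was at 150.3 and 155 CPM with IL1β and at 48.8 and 50.5 CPM with 1 µM CDD-2728, a fall of 1.62 ± 0.09 or 3.07-fold (edgeR, adjusted p = 6.68e-12). The inhibitor libraries lay among the vehicle libraries (48.2 and 54.5 CPM), with a log2 difference from vehicle of -0.05 ± 0.09 (95% interval -0.24 to 0.15). PDGFB, a chain of platelet-derived growth factor, was at 40.1 and 36.9 CPM and then 14.2 and 14.3 CPM (-1.44 ± 0.12, adjusted p = 1.02e-08). This was under the vehicle level of 30.1 and 32.3 CPM (-1.13 ± 0.12 against vehicle, adjusted p = 1.07e-08). FGF5, a fibroblast growth factor, was at 9.16 and 9.72 CPM and then 3.83 and 2.9 CPM (-1.48 ± 0.21, adjusted p = 5.10e-05). NPPB, which encodes the B-type natriuretic peptide, was at 80.3 and 90.9 CPM and then 38.7 and 32.6 CPM (-1.26 ± 0.16, adjusted p = 0.00037), near vehicle (30.8 and 38 CPM).

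Of 24 FGF, PDGF and VEGF family genes 5 fell and 3 rose (leave-one-out counts 2, 3, 2 and 6 lower, 1, 2, 1 and 3 higher), NRP2, VEGFC and FGFRL1 being the other fallers. The riser in all fits was KDR, the main VEGF receptor of endothelium, at 13.8 and 13.5 CPM with IL1β and 23.6 and 21.8 CPM with the inhibitor (0.73 ± 0.12, adjusted p = 0.000239). Vehicle libraries were higher, at 33.1 and 35.5 CPM. Of 10 listed endothelial markers 6 had a mean under 1 CPM, among them PECAM1, VWF and ESAM, EMCN was at 0 in all 4 libraries, and KDR was the 1 of 6 tested members called. Of 7 tested EGF receptor ligands and receptors, HBEGF and EGFR fell (leave-one-out counts 1, 1, 1 and 2). EGFR went from 547 and 524 to 396 and 471 CPM (-0.31 ± 0.08, adjusted p = 0.0181), a call lost without IL1β replicate 1 (adjusted p = 0.244), IL1β replicate 2 (adjusted p = 0.1) or CDD-2728 replicate 1 (adjusted p = 0.373).

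Some genes of actin filaments and focal adhesions fell. Of 42 tested members of the actin, focal adhesion and SRF target list 12 fell and 0 rose (median -0.13, range -1.65 to 0.63), against 2.56% lower and 2.03% higher over all genes, and 13 fell after correction for transcript length. The leave-one-out counts were 9, 6, 7 and 12 lower and 0, 0, 0 and 1 higher. FILIP1L, a filamin A-interacting protein gene (chr3:99830141-100114513, minus strand), was at 253 and 272 CPM with IL1β and at 106 and 105 CPM with CDD-2728. FILIP1L fell by 1.31 ± 0.08 (adjusted p = 8.90e-12) and stayed above vehicle (74.3 and 73.4 CPM; log2 difference 0.52 ± 0.09, adjusted p = 2.10e-06). NEDD9, a docking protein of focal adhesion kinase, was at 9.84 and 11.2 CPM and then 2.76 and 3.95 CPM (-1.65 ± 0.22, adjusted p = 2.65e-05). Other fallers were MICAL2, an actin-oxidizing enzyme, from 561 and 550.3 to 333 and 346 CPM (-0.71 ± 0.08), and PALLD, an actin crosslinker, from 274 and 270.5 to 166 and 186 CPM (-0.63 ± 0.08). Further members called were PDLIM7, ZYX, MYH9, FLNC, DIAPH3, PTK2 and PXN. MYH9, the non-muscle myosin heavy chain, fell from 2735 and 2831 to 1992 and 2245 CPM (-0.39 ± 0.08, adjusted p = 0.00207), a call lost without IL1β replicate 2 (adjusted p = 0.0702) or CDD-2728 replicate 1 (adjusted p = 0.0623).

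AHNAK, a giant scaffold protein of the cell cortex, showed the spread between the inhibitor libraries. It was at 2433 and 2207 CPM with IL1β and at 1239 and 1556 CPM with CDD-2728, replicate 1 being the lower, and fell by 0.73 ± 0.09 (adjusted p = 5.10e-05, or 2.48e-07 after length correction). TRIO, an exchange factor of small GTPases, had the same order of libraries, at 821 and 789.6 CPM and then 501 and 612 CPM (-0.53 ± 0.08, adjusted p = 0.000152). PLEC, a linker of intermediate filaments, was at 1875 and 1734 CPM and then 1290.2 and 1601 CPM, and its call (adjusted p = 0.0383) was lost after length correction (0.0653) and without IL1β replicate 1 (adjusted p = 0.37), IL1β replicate 2 (adjusted p = 0.117) or CDD-2728 replicate 1 (adjusted p = 0.522).

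Of 18 tested matricellular genes TNC and THBS2 fell and THBS1 rose (median 0.17). THBS1, which encodes thrombospondin 1, went from 340.1 and 338 to 495 and 599 CPM (0.69 ± 0.08, adjusted p = 7.27e-06). The leave-one-out counts were 1 higher each time and 1, 1, 1 and 2 lower. TNC and the secreted matrix genes LOX and PAPPA were lower with the inhibitor than with IL1β alone but stayed above vehicle. TNC (chr9:115019578-115118257, minus strand), the matricellular protein tenascin C, was at 562 and 623 CPM with IL1β, at 285 and 327 CPM with 1 µM CDD-2728 and at 77.4 and 79.2 CPM with vehicle. It fell by 0.95 ± 0.08 (edgeR, adjusted p = 6.75e-08) and remained 3.9-fold above vehicle. LOX, the collagen crosslinking oxidase, fell from 761 and 733 to 509 and 559 CPM (-0.48 ± 0.08, adjusted p = 9.93e-05), with vehicle at 188 and 178 CPM. PAPPA, a protease that cleaves IGF-binding proteins, fell from 62 and 55.1 to 30.4 and 33.3 CPM (-0.88 ± 0.11, adjusted p = 2.17e-05), with vehicle at 6.91 and 6.64 CPM.

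Protease genes did not follow 1 direction. Of 23 TIMP, ADAM and ADAMTS genes 5 fell and 0 rose (leave-one-out counts 3, 1, 1 and 7 lower). Of 14 matrix metalloproteinases MMP13 and MMP2 rose and 0 fell (leave-one-out counts 1, 0, 1 and 1 higher). TIMP3, a matrix-bound inhibitor of metalloproteinases, was at 103 and 104 CPM and then 66.7 and 66.8 CPM (-0.63 ± 0.09, adjusted p = 2.43e-05). The collagenase MMP13 was at 2.96 and 2.2 CPM with IL1β and 6.7 and 6.17 CPM with CDD-2728, a rise of 1.31 ± 0.25 (adjusted p = 0.00188) that was not called without IL1β replicate 2 (adjusted p = 0.059). MMP1, another collagenase and a textbook AP-1 target, was at 16.7 and 14.2 CPM and then 20.3 and 19 CPM and did not pass (adjusted p = 0.144; unadjusted 95% interval of the log2 difference 0.07 to 0.63). Stromelysin MMP3 did not pass either (-0.91 to 0.35). Of 20 plasminogen activators and serpins 4 fell and 3 rose (leave-one-out counts 1, 1, 2 and 3 lower, 2, 2, 2 and 3 higher). A riser was TFPI2, a matrix-associated serine protease inhibitor, from 82.3 and 73.2 to 123 and 120.1 CPM (0.65 ± 0.09). Of 21 integrin subunits 4 fell (ITGA2, ITGA5, ITGB8 and ITGA6) and 0 rose (leave-one-out counts 0, 1, 0 and 5 lower). Of 42 collagens, laminins and related genes 5 fell and 3 rose (leave-one-out counts 2, 4, 2 and 6 lower, 0, 2, 2 and 2 higher).

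**Figure D2:**
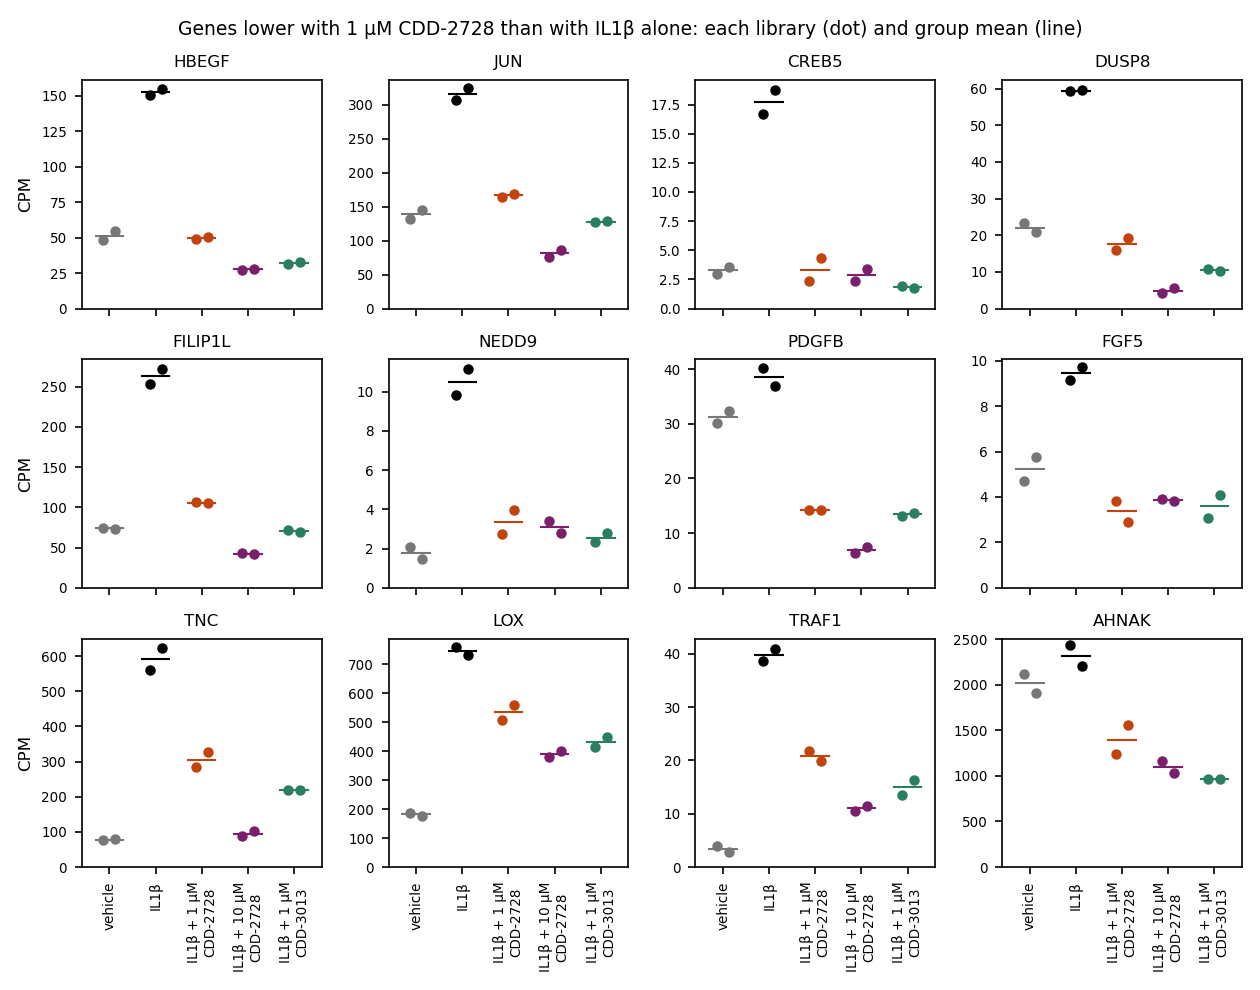
Each panel is 1 gene, with CPM on a linear y axis from 0, a dot for each library and a line at the mean of each of the 5 groups. In all 12 genes both 1 µM CDD-2728 libraries lie under both IL1β libraries, and HBEGF and CREB5 lie at the vehicle level while TNC, LOX and TRAF1 lie between IL1β and vehicle.

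TRAF1 stood out among NF-κB feedback genes, most of which did not pass. Of 19 feedback and survival genes 3 rose and 2 fell (leave-one-out counts 2, 2, 3 and 3 higher, 2 lower each time). TRAF1, a signalling adaptor of TNF receptors, was at 38.6 and 41 CPM with IL1β and at 21.8 and 19.9 CPM with the inhibitor (-0.93 ± 0.12, adjusted p = 2.16e-05). GADD45A, a stress-induced growth arrest gene, was the other that fell (109 and 114 to 64.4 and 71.4 CPM; -0.72 ± 0.12, adjusted p = 0.00362). BIRC3, the inhibitor of apoptosis cIAP2, rose from 169.8 and 164 to 224 and 237 CPM (0.47 ± 0.08, adjusted p = 6.08e-05). Among 15 NF-κB subunits and inhibitors BCL3 and NFKB2 rose and 0 fell (leave-one-out counts 0, 1, 1 and 2 higher). BCL3 was at 79.5 and 89.8 CPM and then 112 and 113 CPM (0.41 ± 0.09) and was not called without IL1β replicate 1 (adjusted p = 0.144). The IL1 receptor IL1R1 rose from 165 and 169 to 232 and 237 CPM (0.49 ± 0.08, adjusted p = 0.000114), and the IL1-family cytokine IL18 fell from 68.6 and 68.2 to 49.3 and 43.2 CPM (-0.56 ± 0.10, adjusted p = 0.000163).

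Acute-phase and innate defence genes had the largest median of the lists described here. Of 19 tested members 13 rose and 2 fell, against 2.03% and 2.56% of all genes, with a median log2 change of 0.64, or 0.59 after length correction. The leave-one-out counts were 8, 9, 8 and 13 higher and 2, 0, 2 and 2 lower. SAA2 (chr11:18239223-18248643, minus strand), a serum amyloid A apolipoprotein, was at 29.95 and 26.7 CPM with IL1β and at 75.6 and 73.9 CPM with 1 µM CDD-2728. It rose 2.64-fold (1.40 ± 0.10, edgeR, adjusted p = 1.58e-09), with no overlap between the groups. SAA1, its close paralog, was at 60.7 and 56.5 CPM and then 175 and 125 CPM (1.36 ± 0.12, adjusted p = 7.68e-06), the inhibitor libraries lying farther apart than those of SAA2. The 2 genes are near-identical in sequence, so how reads were divided between them is uncertain. Vehicle libraries held under 1 CPM of each.

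Other risers of that group encode secreted defence proteins. SLPI, an antiprotease of mucosal surfaces, was at 69.5 and 76.6 CPM and then 181 and 127 CPM (1.08 ± 0.16, adjusted p = 0.00155, or 0.0398 after length correction). CHI3L1, a chitinase-like glycoprotein, was at 7.54 and 10.3 CPM and then 18.5 and 17 CPM (0.99 ± 0.15). Complement factor B, CFB, was at 30.4 and 34.9 CPM and then 48 and 50.7 CPM (0.60 ± 0.10). Complement C3 rose from 770.4 and 855 to 1073 and 1136 CPM (0.44 ± 0.08, adjusted p = 0.000634), a call lost without IL1β replicate 1 (adjusted p = 0.065). LCN2, PTX3, TNFAIP6, C1S, C1R, CHI3L2 and PI3 were also called higher, and the bradykinin receptors BDKRB1 and BDKRB2 were the members called lower. STEAP4, a metalloreductase induced by inflammatory cytokines, rose from 22.7 and 26.9 to 57.7 and 55.1 CPM (1.19 ± 0.11, adjusted p = 2.10e-07). SLC39A8, a zinc importer that NF-κB induces, rose from 909 and 955 to 1386 and 1373 CPM (0.57 ± 0.08, adjusted p = 1.63e-05). C2CD4A, a nuclear factor gene induced by IL1β, rose from 5.14 and 4.77 to 13.9 and 13.9 CPM (1.49 ± 0.16, adjusted p = 7.09e-07), with almost the same value in both inhibitor libraries.

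C/EBP factors, which control many acute-phase genes, gave 2 higher of 5 tested, CEBPD and CEBPB (leave-one-out counts 0, 2, 1 and 2). CEBPD was at 418 and 484 CPM with IL1β and 762 and 599.9 CPM with CDD-2728 (0.59 ± 0.11, adjusted p = 0.00475), not called without IL1β replicate 1 (adjusted p = 0.07). SOCS3, the feedback inhibitor of IL6-type receptor signalling, was at 115 and 125 CPM and then 213 and 203 CPM. SOCS3 rose by 0.80 ± 0.08 (adjusted p = 1.36e-07), with narrow pairs that did not overlap. IL6 itself was at 84.4 and 71.4 CPM and then 101 and 113 CPM (0.46 ± 0.09, adjusted p = 0.00117), not called without IL1β replicate 2 (adjusted p = 0.0718).

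Interferon-induced antiviral genes rose in part. Of 54 tested members 19 rose and 0 fell, against 2.03% and 2.56% of all genes, with a median of 0.32, and 27 rose and 0 fell after length correction. The leave-one-out counts were 8, 16, 11 and 24 higher and 0 lower each time. IFIT2, an RNA-binding antiviral protein, was at 12.1 and 12.5 CPM with IL1β and 22.1 and 25.2 CPM with the inhibitor (0.94 ± 0.14, adjusted p = 0.000159). IFIT1, which binds uncapped or incompletely capped RNA, was at 42 and 44.4 CPM and then 76.1 and 65.6 CPM (0.72 ± 0.11, adjusted p = 0.000244), and its partner IFIT3 at 50.5 and 58 CPM and then 87.8 and 77.5 CPM (0.61 ± 0.09, adjusted p = 0.000231). Both inhibitor libraries were above both IL1β libraries in all 3 genes, and IL1β libraries were above vehicle, where IFIT1 was at 17.7 and 21.2 CPM. TRIM22, MX2, OAS2, OASL, PLSCR1 and HERC5 were among the other risers. Of the 20 interferon ligands, receptors and transcription factors tested, 3 rose, among them IFNGR1 and STAT3, and 0 fell (leave-one-out counts 0, 3, 3 and 3 higher). IFNGR1, a chain of the interferon-γ receptor, went from 57.8 and 65 to 88.5 and 90.9 CPM (0.55 ± 0.09), not called without IL1β replicate 1 (adjusted p = 0.0596).

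Both CXCL10 and TNFSF10 lie on the same side as these genes. CXCL10 (chr4:76021117-76023497, minus strand), the interferon-induced attractant of T cells, was at 15.7 and 15.4 CPM with IL1β and 39.5 and 35.3 CPM with CDD-2728. CXCL10 rose 2.41-fold (1.27 ± 0.14, adjusted p = 3.98e-06). TNFSF10, which encodes the death ligand TRAIL, was at 7.15 and 8.97 CPM and then 20.2 and 16.4 CPM (1.19 ± 0.15, adjusted p = 1.72e-05). GBP4, an interferon-induced GTPase, rose from 18.6 and 19.6 to 30.1 and 34.2 CPM (0.75 ± 0.12), as 1 of 2 called among 5 guanylate-binding proteins (leave-one-out counts 1, 1, 1 and 2). PSMB10, a catalytic subunit of the immunoproteasome, rose from 26.4 and 26.2 to 40.4 and 36.1 CPM (0.54 ± 0.11). Of 22 MHC class I and antigen-processing genes, PSMB10 and PSMB8 were the 2 called (leave-one-out counts 1, 1, 1 and 11).

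Promoters of 4 of these risers are shown because interferon-activated STAT and IRF complexes bind repeats of GAAA spaced by 2 bases. The core searched, on both strands of the same windows, was GAAA, any 2 bases and GAAA again, and 3.65% of the 27305 promoters and 2.88% of the 11220 of tested genes held it; matches of this motif can overlap each other. These genes were chosen for holding it. Capitals mark the core, and each run ends at the base before the start: IFIT1 (chr10:89392497-89392622) and IFIT3 (chr10:89327831-89327996) on the plus strand, and CXCL10 (chr4:76023498-76023728) and TNFSF10 (chr3:172523431-172523627) on the minus strand, GRCh38.p14.
IFIT1: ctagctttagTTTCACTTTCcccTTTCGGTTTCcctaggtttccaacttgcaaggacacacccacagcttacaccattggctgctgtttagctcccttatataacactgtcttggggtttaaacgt
IFIT3: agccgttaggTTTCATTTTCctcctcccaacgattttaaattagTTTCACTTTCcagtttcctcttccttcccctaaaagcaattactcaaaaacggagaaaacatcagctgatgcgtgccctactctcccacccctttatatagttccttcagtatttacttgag
CXCL10: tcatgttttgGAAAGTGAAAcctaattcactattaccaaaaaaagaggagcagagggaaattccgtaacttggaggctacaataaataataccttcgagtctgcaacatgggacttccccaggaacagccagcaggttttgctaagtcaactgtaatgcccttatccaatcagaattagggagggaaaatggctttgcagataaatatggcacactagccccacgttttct
TNFSF10: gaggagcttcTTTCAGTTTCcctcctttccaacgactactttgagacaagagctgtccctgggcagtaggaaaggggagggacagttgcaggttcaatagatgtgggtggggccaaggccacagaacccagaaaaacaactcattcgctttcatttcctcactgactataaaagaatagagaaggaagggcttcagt
IFIT1 holds the core at 116 and 103 bases before its start and IFIT3 at 156 and 122. CXCL10 holds 1 at 221 and TNFSF10 1 at 187 bases. Other risers that hold it include C2CD4A at 219, CFB at 140 and PSMB10 at 21 bases before the start. Genes that were not called hold it too. In the antiviral list it was in 17 of 31 promoters of members not called, beside 10 of 13 of those called higher. Of 309 promoters of genes called lower, 5 held it.

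Chemokines were split. CXCL8 (chr4:73740506-73743716, plus strand), the neutrophil attractant interleukin-8, was the 1 of 18 tested CXC and CC chemokines that fell. It was at 1004 and 914 CPM with IL1β and 711 and 646 CPM with 1 µM CDD-2728, a fall of 0.50 ± 0.12 (adjusted p = 0.0285, or 0.00067 after length correction and 0.0747 in DESeq2), which was not called without IL1β replicate 1 (adjusted p = 0.186). The vehicle libraries held 2.12 and 1.74 CPM. Of 11 CXC chemokines CXCL10, CXCL2 and CXCL1 rose, and of 7 CC chemokines CCL20, CCL2 and CCL5 rose. CCL20, which attracts CCR6-bearing cells, was at 10.0 and 8.53 CPM and then 16.4 and 16.7 CPM (0.83 ± 0.15, adjusted p = 0.00122), with 0 counts in both vehicle libraries. CCL2, the monocyte attractant, was at 320.3 and 336 CPM and then 437 and 384 CPM (0.32 ± 0.08, adjusted p = 0.0201), and was not called without IL1β replicate 1 (adjusted p = 0.266), IL1β replicate 2 (adjusted p = 0.0864) or CDD-2728 replicate 1 (adjusted p = 0.253). The leave-one-out counts were 1, 2, 2 and 4 higher for the CXC and 1, 1, 1 and 3 for the CC list, with 0, 1, 1 and 1 CXC genes lower.

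Prostaglandin genes rose where they changed, with 3 of 17 higher and 0 lower (leave-one-out counts 3, 3, 3 and 5 higher). PTGS2, the inducible cyclooxygenase, was at 45 and 46.5 CPM with IL1β and at 72.3 and 82.5 CPM with CDD-2728 (0.76 ± 0.10, adjusted p = 7.24e-05). PLA2G4A, the cytosolic phospholipase that frees arachidonic acid, was at 16.9 and 16 CPM and then 26 and 30.2 CPM (0.77 ± 0.12, adjusted p = 0.000163). PTGER4, a prostaglandin E2 receptor, was at 30.4 and 37 CPM and then 56.8 and 52.8 CPM (0.70 ± 0.10, adjusted p = 0.000105). In each of the 3 genes the lower inhibitor library was above the higher IL1β library.

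TDO2 (chr4:155854738-155920406, plus strand) rose most among the called genes that were ranked, those with a mean of at least 2 CPM. It was at 2.07 and 2.7 CPM with IL1β, 13.6 and 10.9 CPM with 1 µM CDD-2728 and 0.138 and 0.153 CPM with vehicle, a rise of 5.17-fold (2.37 ± 0.21, edgeR, adjusted p = 6.75e-08). Of 15 tryptophan and aryl hydrocarbon receptor genes 4 rose and 0 fell, the others being NQO1, WARS1 and TIPARP (leave-one-out counts 1, 1, 3 and 4). Metabolic genes also held risers. HK2, a hexokinase of glycolysis, was at 133 and 136 CPM and then 206 and 229 CPM (0.70 ± 0.08, adjusted p = 1.88e-06). G0S2, an inhibitor of the triglyceride lipase ATGL, was at 3.86 and 2.89 CPM and then 8.61 and 8.14 CPM (1.30 ± 0.22, adjusted p = 0.000598), with 0 counts in vehicle. Of 35 glycolysis and hypoxia genes 4 rose and 2 fell (leave-one-out counts 3, 4, 5 and 6 higher, 0, 0, 1 and 2 lower). None of 33 cholesterol and fatty acid synthesis genes passed (edgeR; 2 at an unadjusted p under 0.05 and 1 called by DESeq2).

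The TGF-β, activin and BMP list held calls in both directions, 8 higher and 5 lower of 43 (leave-one-out counts 1, 5, 6 and 7 higher, 2, 3, 3 and 7 lower). ID1, an inhibitor of basic helix-loop-helix factors and a target of BMP-activated SMADs, was at 87.8 and 97.3 CPM with IL1β and 191 and 155 CPM with the inhibitor (0.90 ± 0.09, adjusted p = 2.73e-06). ID1 in the inhibitor libraries was also above vehicle (96.9 and 101 CPM). ID2, ID3 and ID4 were called higher too, by 0.71, 0.65 and 0.33, each lost in at least 1 fit without a library, and ID4 also after length correction (adjusted p = 0.0642). ID2 was lost without IL1β replicate 1 (adjusted p = 0.134) or CDD-2728 replicate 1 (adjusted p = 0.0865), ID3 without IL1β replicate 1 (adjusted p = 0.0628), and ID4 without IL1β replicate 1 (adjusted p = 0.291), IL1β replicate 2 (adjusted p = 0.154) or CDD-2728 replicate 1 (adjusted p = 0.444). TGFB2, a TGF-β ligand, fell from 33.5 and 37.3 to 20.04 and 22.8 CPM (-0.73 ± 0.12, adjusted p = 0.000145), and the ubiquitin ligase SMURF2 fell from 111 and 112 to 75.8 and 78.5 CPM (-0.54 ± 0.09, adjusted p = 4.89e-05).

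**Figure D3:**
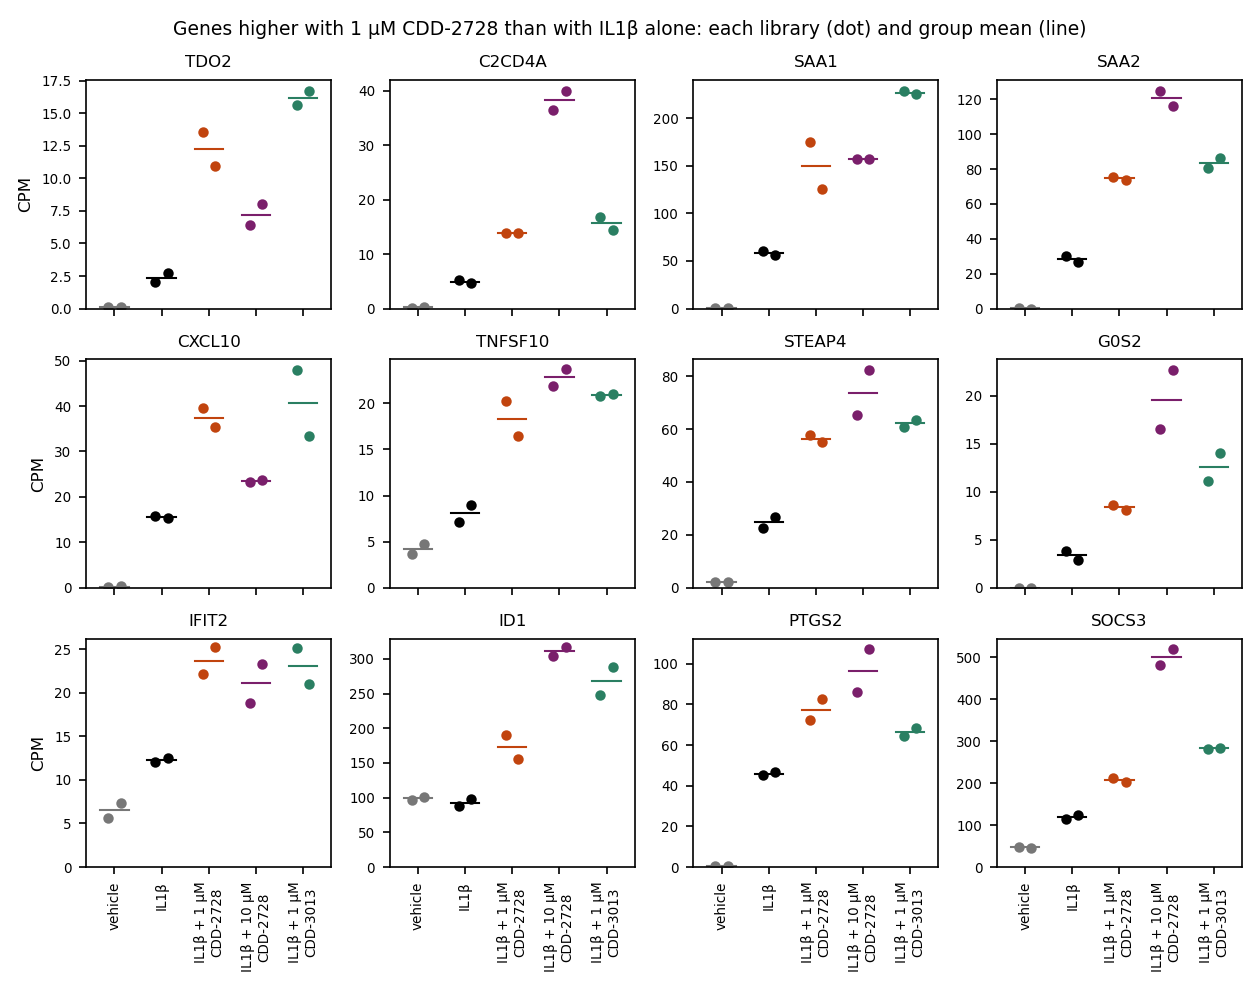
Panels are as in the plot of lower genes, with CPM on a linear axis from 0, for 12 genes that rose with 1 µM CDD-2728. Both 1 µM libraries lie above both IL1β libraries in each panel, and TDO2 and CXCL10 are lower at 10 µM than at 1 µM while C2CD4A, G0S2, ID1 and SOCS3 are higher at 10 µM.

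Some lists not described above held calls in both directions, beside 2.03% higher and 2.56% lower over all genes. The TNF superfamily had 6 higher and 4 lower of 30. Adhesion molecules had 3 and 4 of 21, and ETS, ELF and KLF factors 3 and 5 of 24. The lists that follow had few calls or moved with 1 library. None of 76 ribosomal protein genes passed in the full fit, although their median was 0.26, or 0.23 after length correction (edgeR; 41 at an unadjusted p under 0.05 and 0 called by DESeq2). Without CDD-2728 replicate 2, 62 of the 76 were called higher, and 0 were without any of the other 3 libraries. Respiratory chain subunits encoded in the nucleus gave 1 higher of 76 (median 0.18), with 35 higher without CDD-2728 replicate 2, and the proteasome 0 of 31 (median 0.16, edgeR; 13 at an unadjusted p under 0.05 and 0 called by DESeq2), with 13 higher without that library. The 13 messenger RNAs of the mitochondrial genome had a median of 0.02 and 0 calls (edgeR; 1 at an unadjusted p under 0.05 and 0 called by DESeq2). Of 39 replication and G1/S genes 1 rose and 1 fell (leave-one-out counts 0, 0, 0 and 7 higher, 1, 1, 1 and 2 lower). The faller was CDK6, the G1 kinase, at 169 and 155 CPM and then 85.7 and 112 CPM (-0.72 ± 0.10, adjusted p = 0.00012). Of 37 mitotic genes KIF20A, CDC25B, KIF2C and CCNB1 rose, between 0.24 and 0.28 (leave-one-out counts 0, 0, 1 and 8). Among endometrial stromal markers COL3A1, DCN, HAND2 and LUM were called higher of 14 (leave-one-out counts 0, 4, 3 and 4). None of the 14 was called lower, and their median log2 change was 0.10. Of 10 epithelial markers ELF3 rose and PAX8 fell, and of 7 mesothelial markers CALB2 and LRRN4 rose and WT1 fell. The summed level of the stromal markers was 7160 and 7421 CPM with IL1β and 7707 and 8206 CPM with CDD-2728. In this sum COL3A1 held 1627 and 1790 CPM, then 2232 and 2371 CPM. LUM held 1062 and 1103 CPM, then 1478 and 1284 CPM. Lower but not called were, among others, VIM (612 and 688, then 534 and 554 CPM) and the mean of COL1A1 (3226, then 2970 CPM). The part of this sum in other results was not tested.

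**Figure D4:**
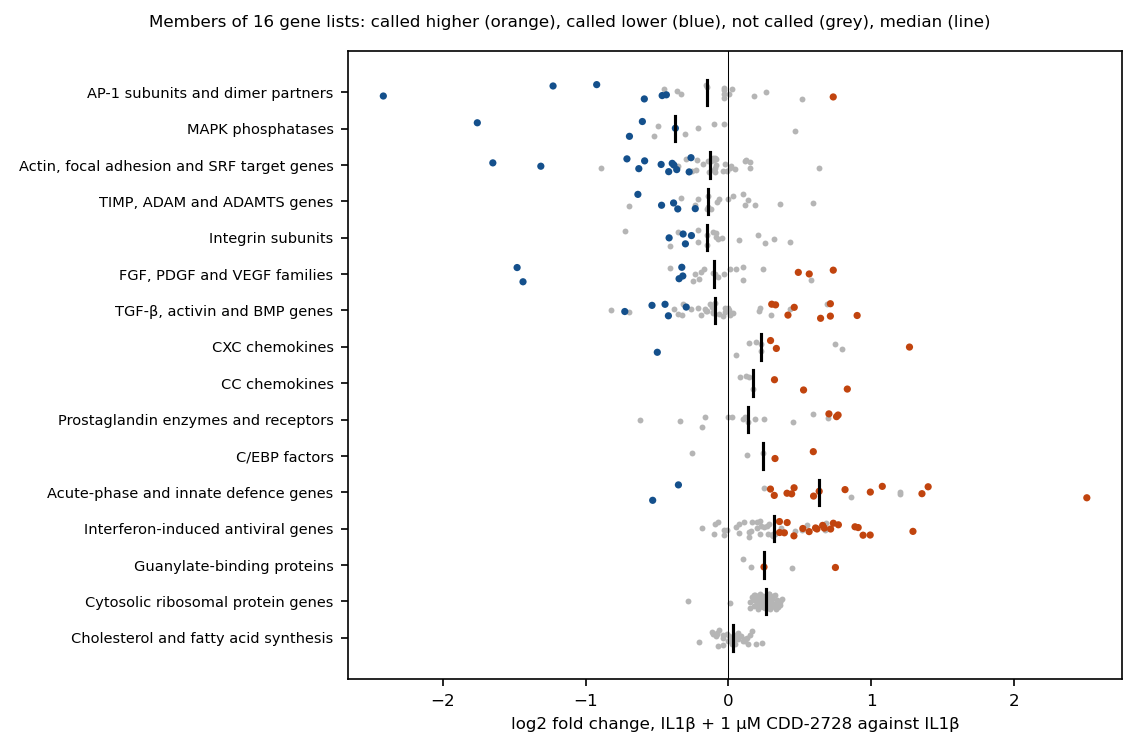
Each row is a gene list and each dot a tested member, placed by its log2 fold change for IL1β + 1 µM CDD-2728 over IL1β, with called members in orange (higher) or blue (lower), the rest in grey and the median as a black line. Acute-phase genes have the median farthest to the right (0.64) and MAPK phosphatases the median farthest to the left (-0.37), while ribosomal protein genes form a tight grey group near 0.26.

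The dose contrast shares the 1 µM libraries with the comparison above, so its values are set beside it and not counted as a repeat of it. Between 10 and 1 µM CDD-2728, 27.1% of genes differed (4262 called, or 2680 and 2718 without 10 µM replicate 1 or 2), 13.3% higher and 13.8% lower at 10 µM. Several fallers were lower again at 10 µM. JUN was at 76.5 and 86.6 CPM at 10 µM (log2 difference from 1 µM -1.03 ± 0.08, adjusted p = 1.07e-09), DUSP8 at 4.27 and 5.49 CPM (-1.85 ± 0.16) and HBEGF at 27.1 and 27.9 CPM (-0.85 ± 0.10, adjusted p = 1.90e-07). TNC was at 86.9 and 102 CPM (-1.70 ± 0.08, adjusted p = 5.58e-12). CREB5 did not differ in the test between doses (2.4 and 3.4 CPM at 10 µM; 95% interval of the log2 difference -0.75 to 0.35), nor did NEDD9 (-0.61 to 0.41) or FGF5 (-0.28 to 0.66).

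For other genes the 2 doses lay on different sides or far apart. DUSP4, lower at 1 µM than with IL1β alone, was at 47.8 and 49.7 CPM at 10 µM, higher than at 1 µM by 0.67 ± 0.10 (adjusted p = 1.34e-05) and beside the IL1β libraries (49.3 and 43.7 CPM). KLF6, a zinc finger factor of the early response, fell from 156 and 150.2 CPM with IL1β to 77.2 and 88.3 CPM at 1 µM (-0.89 ± 0.09) and was at 113 and 110.5 CPM at 10 µM (0.43 ± 0.09 between doses). SYTL2, a vesicle-docking protein gene, had the same pattern, with 8.89 and 7.4 CPM with IL1β, 3.72 and 3.64 CPM at 1 µM and 7.41 and 7.7 CPM at 10 µM (1.04 ± 0.21, adjusted p = 0.000245). Among risers, TNFSF18, the ligand of GITR, went from 9.67 and 10.9 CPM with IL1β to 18.5 and 19.7 CPM at 1 µM (0.89 ± 0.15) and was at 4.43 and 4.6 CPM at 10 µM (-2.08 ± 0.17 between doses, adjusted p = 3.15e-09). MMP13 was at 0.267 and 0.418 CPM at 10 µM (-4.22 ± 0.47), PTGER4 at 16.1 and 17 CPM (-1.73 ± 0.11), TDO2 at 6.45 and 8.0 CPM (-0.77 ± 0.17) and IFIT1 at 32.1 and 32.8 CPM (-1.13 ± 0.11), each lower than at 1 µM. SOCS3 at 482 and 521 CPM (1.27 ± 0.08), C2CD4A at 36.4 and 39.9 CPM (1.45 ± 0.13) and ID1 at 305 and 318 CPM (0.85 ± 0.09) were higher at 10 µM than at 1 µM. SAA1 and CCL20 did not differ in the test between doses (95% intervals -0.17 to 0.30 and -0.05 to 0.51). SAA2, whose reads are not surely divided from those of SAA1, was higher at 10 µM (125 and 116 CPM, 0.69 ± 0.09, adjusted p = 3.38e-06).

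CDD-3013 was tested at 1 µM, the matched dose. The test of CDD-3013 against CDD-2728 called 2812 genes, 17.9% (9.85% higher and 8.02% lower with CDD-3013), and 812 after correction for length and GC content. It called 632 without CDD-2728 replicate 2 and 949 without CDD-3013 replicate 2. The CDD-3013 libraries had the steepest trends with length of the 5 groups, -0.0445 and -0.0713 log2 units per doubling. Differences between the compounds are therefore given only where both fits called them. HBEGF was at 31.5 and 32.7 CPM with CDD-3013, with a log2 difference from CDD-2728 of -0.63 ± 0.10 (adjusted p = 0.000405; corrected -0.75, 4.49e-06). JUN was at 127 and 129 CPM (-0.38 ± 0.08; corrected -0.56, adjusted p = 7.95e-06), DUSP8 at 10.8 and 10.1 CPM (-0.75 ± 0.14; corrected -0.93, adjusted p = 0.000123) and FILIP1L at 71.4 and 69.5 CPM (-0.59 ± 0.09; corrected -0.48, adjusted p = 9.27e-05). In these 4 genes CDD-3013 gave the lower level in both libraries. SAA1 (229 and 225 CPM; 0.60 ± 0.11; corrected 0.49) and ID1 (248 and 288 CPM; 0.63 ± 0.09; corrected 0.35) were higher with CDD-3013 than with CDD-2728 in both fits. SAA2, the close paralog of SAA1, was called in neither fit (80.6 and 86.1 CPM, 0.16 ± 0.09, corrected 0.06). Neither fit called PDGFB (13.2 and 13.6 CPM), DUSP4 (29.2 and 31 CPM), CXCL10 (47.9 and 33.5 CPM) or STEAP4 (60.9 and 63.5 CPM). The uncorrected 95% intervals of the log2 difference were -0.36 to 0.19, -0.25 to 0.19, -0.14 to 0.38 and -0.07 to 0.35, in that order. The corrected differences were -0.28, -0.01, 0.15 and 0.42, with STEAP4 outside its uncorrected interval (adjusted p = 0.0544).

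The relation between level and transcript length differed among the 4 libraries. Length here is the union of a gene's exons in GENCODE 29, known for 15322 of the tested genes (97.3%), and each library's level is its log2 CPM minus the mean of the 10 libraries. Genes were split by length into 5 groups of equal size, numbered 1 (shortest) to 5 (longest). From group 1 to group 5 the median level rose by 0.16 and 0.14 in the IL1β libraries and by 0.12 in CDD-2728 replicate 2, and fell by 0.08 in CDD-2728 replicate 1. The slopes were 0.0238 and 0.0202 log2 units per doubling of length with IL1β and -0.0100 and 0.0189 with 1 µM CDD-2728. Replicate 1 of CDD-2728 thus lay apart, while replicate 2 lay with the IL1β libraries.

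Longer genes were called lower more often. Median log2 changes over the 5 length groups, from shortest to longest, were 0.07, 0.05, 0.02, -0.02 and -0.07. Genes called lower numbered 21, 47, 65, 102 and 167 over the same groups, and genes called higher 66, 83, 59, 67 and 44. The median union exon length was 4079 bases for the higher and 7110.5 bases for the lower genes, beside 4607.5 bases for all tested. With each library's own length trend taken out as an offset, the 5 length groups had medians between 0.00 and 0.02. The correction flattens these medians by design, so they are no test of it. The fit then called 428 higher (2.72%) and 473 lower (3.01%), 5.72% of genes in all, with median lengths of 5277.5 and 5660 bases. Of the original calls 309 of 319 and 357 of 403 remained. Without CDD-2728 replicate 1 the median of group 5 was -0.02 and that of group 1 was 0.01, and without replicate 2 they were -0.11 and 0.12.

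Among the longest called genes the correction mattered for some. SYNE1, which encodes the giant nuclear envelope protein nesprin-1 (46064 bases of exon), was at 24.1 and 22.4 CPM with IL1β and 17.6 and 15.3 CPM with CDD-2728 and had an adjusted p of 0.0231 before and 0.143 after it. SYNE1 was also not called without IL1β replicate 1 (adjusted p = 0.259), IL1β replicate 2 (adjusted p = 0.09) or CDD-2728 replicate 2 (adjusted p = 0.0896). DST, which encodes dystonin (42341 bases), kept its call after it (0.0362 and 0.00109) but was not called without IL1β replicate 1 (adjusted p = 0.116), IL1β replicate 2 (adjusted p = 0.109) or CDD-2728 replicate 1 (adjusted p = 0.227). A call that held in all fits was that of KCNC4, a potassium channel (25042 bases; 2.02e-05 and 6.79e-05). FLRT2, an adhesion protein gene of 34899 bases, rose against the lean of long genes, from 28.4 and 32.4 to 42.7 and 46 CPM (0.54 ± 0.11, adjusted p = 0.000861 before and 5.78e-06 after), and was not called without IL1β replicate 1 (adjusted p = 0.0679). Among the shortest, NPPB (694 bases) fell against the lean of short genes and kept its call after correction (0.00051), and SLPI (596 bases) had an adjusted p of 0.00155 before and 0.0398 after it.

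**Figure D5:**
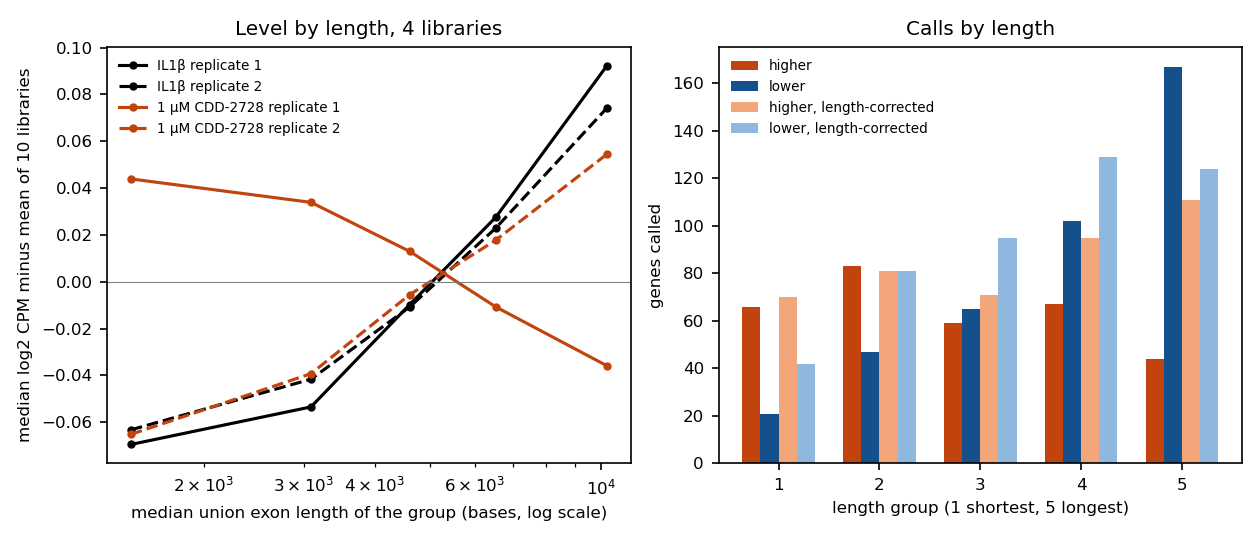
On the left, lines give for 4 libraries the median log2 CPM minus the mean of 10 libraries in 5 equal groups of genes, against their median union exon length (bases, log scale): CDD-2728 replicate 1 slopes down and the other 3 libraries slope up. On the right, bars count called genes in each length group, with 167 called lower in group 5 before the length correction and 124 after it.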

How the data were processed

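Poly(A)-enriched RNA from 12Z cells was sequenced in 10 libraries, 2 in each of 5 groups assigned from the labels. The deposited table holds raw read counts per gene for 62750 gene IDs. Per the submitters' processing notes it was made with fastp, STAR and featureCounts on hg38; for versions, annotation release and strand setting the sources used here give nothing, so overlapping and antisense genes may share reads. Genes with enough counts (filterByExpr, minimum count 10; 15740 genes) were tested in R 4.3.3 with edgeR 4.0.16 (TMM scaling, robust quasi-likelihood test, all 10 libraries in 1 fit with 5 residual degrees of freedom). P-values were Benjamini-Hochberg adjusted over all tested genes, and genes under 0.05 were called. Intervals of 95% used the t distribution with the fit's degrees of freedom per gene and are not adjusted for the number of genes. The script was tested on simulated data. Gene positions and exon lengths came from GENCODE 29 (GRCh38), promoters from RefSeq (GRCh38.p14).

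Length correction subtracted from each library a loess curve (span 0.3) of its log2 CPM deviation on log2 exon length, and the length and GC correction did so for both in 2 rounds. Named genes were the 20 largest log2 changes and 10 largest CPM differences in each direction, and the 5 longest and 5 shortest. These were called, had a mean of at least 2 CPM in the higher group and had groups apart. Antisense, LINC and clone names, pseudogenes and unnamed IDs were left out of these picks. Up to 4 called members of each gene list, marker lists aside, were added without that floor. A further 15 JNK, AP-1 and inflammatory genes were named whatever their result. Other genes are named only as called members of a list, as markers or, for SPON1, for rank, and some genes that the rule names are not reported here. The comparison, the lists and the rules were chosen with earlier results of these data known. Alternatives were other scalings (relative log expression, library totals), no filter, a strict filter (5 CPM in 2 libraries), DESeq2 1.42.0, a fit of only the 4 libraries, a replicate block, the corrections, and leaving out each library.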

Additional observations from a re-analysis of the deposited data

How the results depend on the processing

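With 2 libraries a group, 1 library could decide a call, and counts rest on these 4 libraries of 16312600 to 18453896 reads. Where 1 library was left out, the lone library of its group was assumed to vary like the other groups. Genes called higher numbered 91 to 835 and genes called lower 127 to 653 over those fits, against 319 and 403 with all libraries, and fewer samples remained in each. Without the filter 551 genes were higher and 453 lower, and the cause was not tested. Under the other scalings, the strict filter, DESeq2 and the fit of only the 4 libraries, 297 to 330 were higher and 330 to 439 lower. After the length correction 428 and 473 were called, and after the length and GC correction 447 and 494. The contrast with vehicle called 5478 genes, 3838 to 5193 without 1 library and 4596 to 6708 under the other settings. The dose contrast called 4262, 2680 to 4045 without 1 library and 3424 to 4898 under the others. CDD-3013 against CDD-2728 gave 2812 calls, 1818 in a fit of only its own libraries, 812 after the length and GC correction, 668 with the replicate block and that correction, and 632 to 3340 without 1 library. The trend of the log2 change with transcript length was -0.0166 per doubling, -0.0680 under the strict filter and -0.0643 in protein-coding genes, and turned to 0.0081 without CDD-2728 replicate 1 (range without 1 library -0.0274 to 0.0081). MAPK8, never called, turned to log2 changes of 0.0311 after the length correction, 0.0445 after the length and GC correction, 0.0456 with the replicate block and that correction, and ranged from -0.109 to 0.0532 without 1 library (0.0532 without IL1β replicate 2). MAPK10 turned to -0.217 without IL1β replicate 2 and to -0.158 when CDD-2728 replicate 1 was left out, over a range of -0.217 to 1.01. Of the 202 named genes, 7 lost their call after the length correction and 12 with the replicate block, and 105 and 80 did with IL1β replicate 1 or 2 left out, 80 and 14 with CDD-2728 replicate 1 or 2 left out. DESeq2 gave an adjusted p for 193 of them, of which 6 lost their call.

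The labels give each group replicates 1 and 2. Deviations of same-numbered libraries correlated at -0.0607 between IL1β and 1 µM CDD-2728 and at -0.114 to 0.0548 over all pairs of groups. These values cannot tell whether same-numbered libraries share a culture or a day, which the labels do not say. In each group replicate 1 had the larger total count. With the replicate block 287 genes were higher and 346 lower, and with the replicate block and the length and GC correction 408 and 474.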
